A study of Triticum aestivum with 4 samples.

Results

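Transcripts that encode the nuclear part of the photosynthetic light-harvesting machinery were followed in leaves and roots of wheat under drought. They comprise the chlorophyll a/b-binding antenna proteins and the nuclear-encoded subunits of photosystem I (PSI) and photosystem II (PSII). They were recognised by the best Arabidopsis thaliana match of each assembled transcript, at a BLAST E-value of at most 0.001. A match counted when its gene symbol began with LHCA, LHCB, LHB, CAB and a digit, PSAD to PSAO, PSBO to PSBZ or PETE, or when its name held "photosystem I" or "chlorophyll a/b". The rule uses annotation and no read count, but the group was taken up with earlier results of these data known. In leaves it took 148 of 19899 isotigs, the assembler's transcript models, which fell into 106 of 16585 isogroups, its gene-like clusters, and matched 30 of 7012 Arabidopsis loci. In roots it took 8 of 32085 isotigs in 7 of 24900 isogroups, with matches to 7 of 9199 loci. The symbol PETE matched nothing, and no member matched a plastid gene of Arabidopsis. The symbol ranges leave out plastid genes such as psaA and psbA, so the rule largely settled this and it says little about the nuclear label.

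Antenna proteins bind chlorophyll and pass the absorbed light energy to the reaction centres of PSI and PSII in the thylakoid membrane. PSII takes electrons from water and PSI passes them on to ferredoxin, and the mobile carrier plastocyanin links the chain to PSI. The reaction-centre cores are encoded largely in the plastid genome, whereas the antenna proteins, the proteins that stabilise the water-splitting site and many small subunits are encoded in the nucleus and imported. In green leaves these nuclear genes are among the most strongly transcribed, and non-green roots express them little.

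The plants were Triticum aestivum cultivar MGS1 Aliança, a hexaploid bread wheat grown in the Brazilian Cerrado, harvested at 5 weeks of age at the tillering stage. Drought plants had soil at 75% of field capacity during the first 2 weeks and were left unwatered during the last 3 weeks, while control plants had soil at 100% of field capacity through all 5 weeks. Leaves and roots of the 3 plants of a pot were pooled, so that the study has 4 libraries, Leaf drought, Leaf control, Root drought and Root control, with 1 library each and no replicate. The p-values below therefore compare 2 libraries and not 2 conditions, and intervals include no error other than that of counting. In such whole-organ RNA, fewer cells of a type and less RNA per cell cannot be told apart.

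The authors counted the reads of each library in each isogroup. These counts sum to 183141 in the leaf drought and 203328 in the leaf control library, and to 199622 in the root drought and 202624 in the root control library. The largest leaf isogroup, a ribosomal RNA-like sequence, held 46.0% of the drought and 42.7% of the control isogroup reads. The labelled tissues were checked on marker genes. RBCS1A (Rubisco small subunit), RCA (Rubisco activase) and PRK (phosphoribulokinase) had 98 to 580 reads in the leaf drought library, 383 to 4658 in the leaf control library and none in either root library. Another leaf marker, GAPA, was not matched, and reads of GAPB lay mostly in an isogroup shared with LHCB3. Root markers were few in all libraries, and did not all separate the tissues. NAS2, COBL9 and EXPA7 had no reads in any library, and NAS1 had 2 in the root drought and 5 in the root control library alone. The potassium transporter HAK5 had 5 reads in the root drought and 22 in the root control library, but also 6 in the leaf drought and 7 in the leaf control library. The nitrate transporter NRT2.1 was read in the root control library alone, with 14 reads.

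The test was MARS, the DEGseq model that the study used, at an unadjusted p under 0.001. It asks whether the log2 ratio of 2 counts departs from that of the library totals more than counting allows. MARS took a 0 as 1 read. The words rose and fell are used for what passed it. Folds are ratios of reads divided by the library totals above, with the 95% exact binomial interval in parentheses. A gene here is the sum of the isogroups with 1 best Arabidopsis match, which can gather homoeologous copies of the wheat subgenomes and related genes. Reads of near-identical copies may have been split or joined by the assembler, so values of single copies are uncertain.

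In leaves the antenna and photosystem transcripts were lower in the drought library in every role group. Their isogroups together held 1990 drought reads, 1.09% of the isogroup reads (95% exact Clopper-Pearson interval 1.04 to 1.14), against 9193 control reads, 4.52% (4.43 to 4.61). This is a 4.16-fold lower share in drought (3.96 to 4.37). Of 28 genes, 23 fell and none rose, while 3.40% of all 6875 leaf genes tested fell and 3.75% rose. Of 102 isogroups, 65 fell, 1 rose and 36 did not pass the test, against 2.18% of all leaf isogroups that fell and 2.07% that rose. The 102 member isogroups, of 16585 in all, were thus 18.0% of the 361 leaf isogroups that fell, but 30 of the 65 match the single gene LHB1B2. By gene, members were 9.83% of the 234 leaf genes that fell. The other 4 of the 106 isogroups mostly hold isotigs of genes that are no members. They were kept apart as mixed, and all 4 fell as well.

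Low counts decide much of what could be called. With at least 10 reads over both leaf libraries, 27 genes remained, of which 23 fell, beside 8.15% that fell and 8.98% that rose of all 2872 leaf genes at that depth. Among 78 isogroups of that depth 65 fell and 1 rose, beside 10.5% and 9.97% of all 3452. Of the 78, 74 had a lower share in drought, and 70 were at least 2-fold lower, beside 23.2% of all 3452. The median log2 ratio of the 27 genes was -1.91, whereas that of all leaf genes of that depth was 0.25. The remaining 24 isogroups had fewer than 10 reads each, and none of them passed the test.

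**Figure D1:**
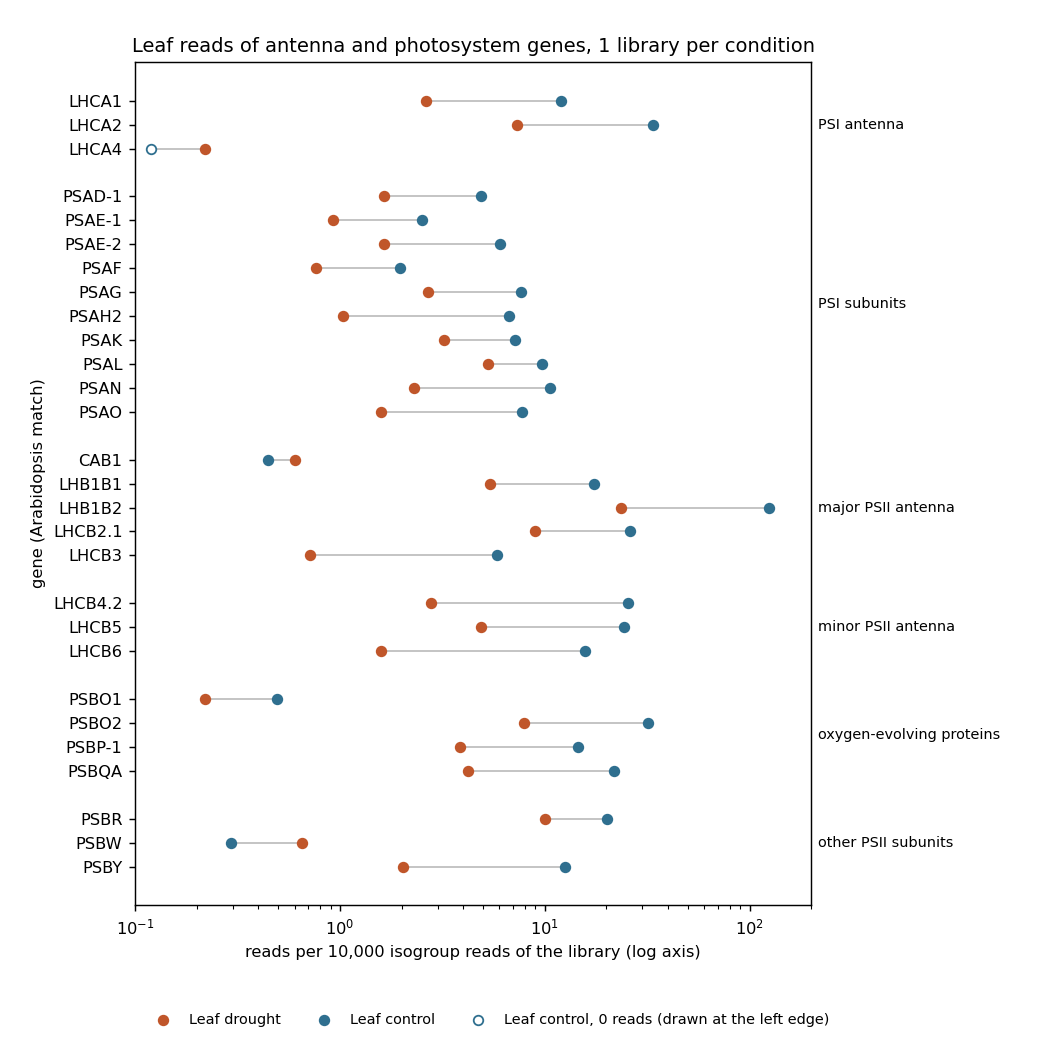
Reads of each leaf gene per 10000 isogroup reads of its library, on a log axis, in the drought (orange) and control (blue) library, with genes grouped by role and 1 library per condition. The drought point lies left of the control point in 25 of 28 genes, and LHCA4, with 0 control reads, is drawn as an open circle at the left edge.

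The antenna of PSI is built from LHCA proteins, which sit as a belt on one side of the PSI core. Its isogroups had 186 reads in the drought and 935 in the control library, a 4.53-fold lower share in drought (3.86 to 5.33). LHCA2 had 134 reads in the drought library, against 690 in the control library, and was 4.64-fold lower (3.85 to 5.62). LHCA1 had 48 reads in drought, against 245 in control, and was 4.60-fold lower (3.36 to 6.40). Both genes fell, and their folds lay within each other's interval. One isogroup counted for LHCA2, with 110 drought and 581 control reads, also holds isotigs that match LHCA4, and those isotigs had 41 to 44 reads in drought and 226 to 289 in control. LHCA4 by itself was left with a single short isogroup of 216 bases with 4 drought and 0 control reads, which did not pass the test. It is named here after its values were seen, as the only leaf gene under 10 reads.

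LHCA3 was found only in an isogroup that also holds isotigs of GLDP1, a subunit of glycine decarboxylase in photorespiration. This mixed isogroup had 430 reads in drought, against 1008 in control. Its 3 LHCA3 isotigs, which share reads, had 31, 61 and 63 reads in drought, against 163, 272 and 319 in control, so each was lower in the drought library. LHCA1 also has an isotig in a mixed isogroup, beside AT3G30390, with 21 reads in drought and 46 in control.

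PSI subunits encoded in the nucleus lie around the plastid-encoded core. In 26 isogroups of 10 genes they had 386 drought and 1322 control reads, a 3.08-fold lower share in drought (2.75 to 3.46), and 9 of the 10 genes fell. PSAD and PSAE form the stromal side where ferredoxin docks. PSAD-1 had 30 reads in drought, against 99 in control, 2.97-fold lower (1.96 to 4.63). PSAE-1 had 17 reads in drought, against 51 in control, 2.70-fold lower (1.53 to 4.99). PSAE-2 had 30 reads in drought, against 123 in control, 3.69-fold lower (2.46 to 5.70). The 3 intervals overlap.

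On the lumenal side, where plastocyanin delivers its electron, PSAN and PSAF differed in their call. PSAN had 42 reads in drought, against 216 in control, and fell 4.63-fold (3.32 to 6.61). PSAF had 14 reads in drought, against 40 in control, a ratio of 2.57-fold lower (1.37 to 5.12), and just missed the threshold. It passed with the total reads of each library, with TMM or with median-of-ratios size factors as scaling.

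PSAG and PSAK are membrane subunits at the edge where the antenna attaches. PSAG had 49 reads in drought, against 156 in control, and fell 2.87-fold (2.07 to 4.04), although only 1 of its 3 isogroups passed the test. PSAK had 59 reads in drought, against 146 in control, and fell 2.23-fold (1.64 to 3.07). Its isogroups did not all go the same way. The largest had 45 drought and 138 control reads and fell, whereas a short one of 378 bases had 12 drought and 0 control reads. With its control count set to a floor of 3 reads, this short isogroup was 4.44-fold higher in drought. The floor is no confidence limit, and the exact binomial interval allows a smaller difference, down to a log2 ratio of 1.63. That isogroup is the only member isogroup that rose. Its match to PSAK had an E-value of 5e-13 and 81% identical residues, weaker in E-value than the other PSAK isogroups, and its call was lost under TMM, size factors and an E-value limit of 1e-20.

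PSAH, PSAL and PSAO lie together at the side of PSI where mobile PSII antenna can dock. Their folds spread widely. PSAH2 had 19 reads in drought, against 136 in control, and was 6.45-fold lower (3.97 to 11.04). PSAO had 29 reads in drought, against 157 in control, and was 4.88-fold lower (3.27 to 7.52). PSAL had 97 reads in drought, against 198 in control, and was 1.84-fold lower (1.43 to 2.37). All 3 genes fell, and the interval of PSAL lies below those of PSAH2 and PSAO. In PSAL only 1 of 3 isogroups passed the test, whereas all 3 isogroups of PSAH2 did.

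**Figure D2:**
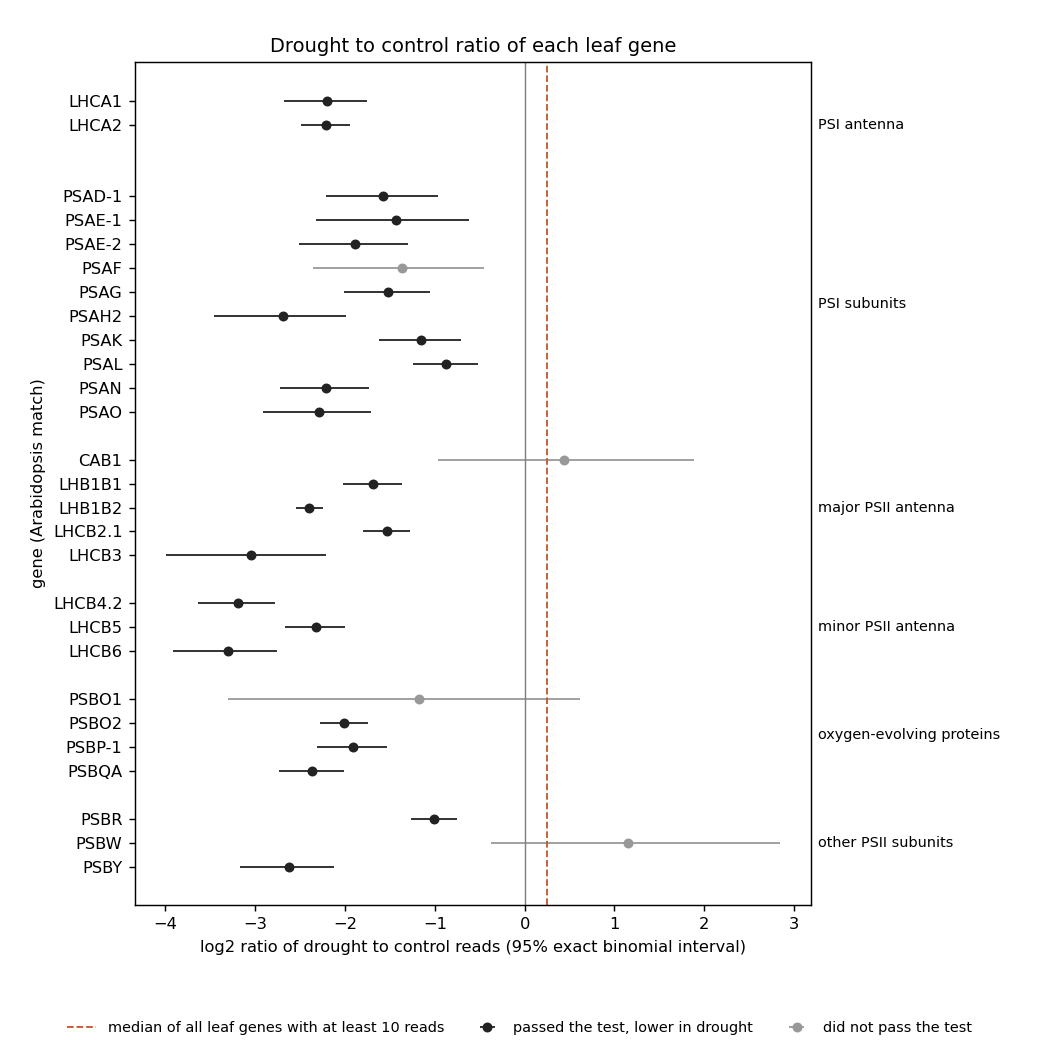
Log2 ratio of drought to control reads of 27 leaf genes with reads in both libraries, with the 95% exact binomial interval, in black where the gene fell and in grey where it did not pass the test. Every black point lies left of 0 and of the dashed line, the median of all leaf genes with at least 10 reads (0.25), from PSAL at -0.88 to LHCB6 at -3.31.

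The major antenna of PSII consists of trimers of LHCB1, LHCB2 and LHCB3 proteins, the most abundant membrane proteins of the thylakoid. Its 46 isogroups had 719 drought reads, 0.393% of the library (0.364 to 0.422), against 3538 control reads, 1.74% (1.68 to 1.80). The share was 4.43-fold lower in drought (4.09 to 4.81). Of its 5 genes 4 fell. LHB1B2, an LHCB1-type gene, gathered 37 isogroups with 432 reads in drought, against 2528 in control, and was 5.27-fold lower (4.76 to 5.85). It made up 21.7% of all member reads in the drought library and 27.5% in the control library. LHB1B1, another LHCB1-type gene, had 99 reads in drought, against 354 in control, and was 3.22-fold lower (2.57 to 4.07).

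LHCB2 is a trimer protein that is phosphorylated when antenna moves between the photosystems, and LHCB3 is held in the inner trimers. LHCB2.1 had 164 reads in drought, against 528 in control, 2.90-fold lower (2.43 to 3.48). LHCB3 had 13 reads in drought, against 119 in control, 8.25-fold lower (4.64 to 15.9). The interval of LHCB3 lies above that of LHCB2.1. Both genes also occur in mixed isogroups. LHCB2.1 shares one with PETC, the Rieske protein of cytochrome b6f, and its isotig there had 96 reads in drought, against 318 in control. LHCB3 shares one with GAPB of the Calvin cycle, and its 4 isotigs there had 23 to 33 reads in drought, against 180 to 182 in control. CAB1, a further LHCB1-type match with 1 isogroup, had 11 reads in drought and 9 in control and did not pass the test. Its share was 1.36-fold higher in drought (0.511 to 3.70).

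Isogroups of LHB1B2 differed among themselves by more than counting error. Of the 33 with at least 10 reads, all had a lower share in drought and 30 fell. One had 22 reads in drought, against 327 in control, 13.4-fold lower (8.69 to 21.7). Another had 75 reads in drought, against 189 in control, 2.27-fold lower (1.73 to 3.01). These intervals are far apart, although the isotigs of both match the same Arabidopsis gene, at 88% and 87% identical residues. One more, with 50 control reads, had none in drought. With its drought count set to a floor of 3 reads, this isogroup was 15.0-fold lower. The floor is no confidence limit, and the exact binomial interval allows a smaller difference, up to a log2 ratio of -3.56. Together, 5 isogroups of LHB1B2 with at least 10 reads had no drought read.

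The ratio also differed between LHB1B2 isogroups with many and with few reads. The 8 isogroups with at least 100 reads had 356 drought and 1561 control reads, 3.95-fold lower (3.52 to 4.44). Among these 8, 1 isogroup with 34 drought and 157 control reads also holds an isotig that matches AT1G19310. Its LHB1B2 isotig had 29 drought and 154 control reads. The 25 with 10 to 99 reads had 74 drought and 953 control reads, 11.6-fold lower (9.15 to 14.9). The reads that divide them include the drought reads, so a low ratio itself moves an isogroup towards the less read ones. The 8 all have at least 100 control reads, which the 25 cannot have by their definition. Over these 33 isogroups, which come from the same 2 libraries, Spearman's correlation of the log2 ratio was 0.62 with the length of the isogroup and 0.46 with its reads. The division at 100 reads was chosen after the values were seen, and how the assembler divides reads among similar copies was not tested.

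**Figure D3:**
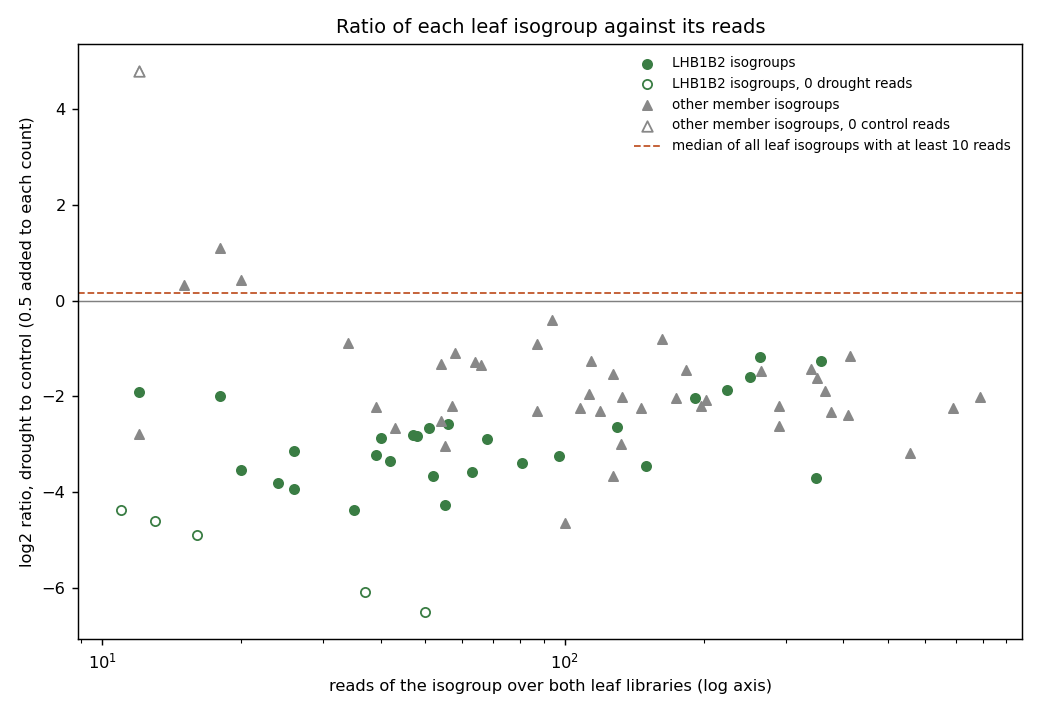
Log2 ratio of drought to control (0.5 added to each count) of each of 78 leaf member isogroups with at least 10 reads, against its reads over both libraries on a log axis. Green circles are LHB1B2 isogroups and grey triangles the others, and open symbols have 0 reads in 1 library. Drought reads enter both axes. The LHB1B2 isogroups with under 100 reads lie at a median of -3.39 and those with at least 100 at -1.95, and 4 isogroups of other genes lie above 0.

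The minor antenna proteins LHCB4, LHCB5 and LHCB6 are monomers that connect the trimers to the PSII core. As a group they had the lowest ratio of the 6 role groups, with 169 reads in drought, against 1333 in control. This is a 7.10-fold lower share in drought (6.05 to 8.39), and the interval lies above those of the other 5 role groups. LHCB6 had 29 reads in drought, against 319 in control, and was 9.91-fold lower (6.77 to 15.0). LHCB4.2, counted together with isotigs that match LHCB4.1, had 51 reads in drought, against 519 in control, and was 9.17-fold lower (6.87 to 12.5). LHCB5 had 89 reads in drought, against 495 in control, and was 5.01-fold lower (3.99 to 6.35). All 3 genes fell.

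Copies differed here too. The 3 LHCB6 isogroups with at least 10 reads had 8, 18 and 3 reads in drought, against 119, 101 and 97 in control. Control reads were thus nearly equal among them, while the drought reads gave 13.4-fold (6.58 to 31.8), 5.05-fold (3.04 to 8.87) and 29.1-fold (9.67 to 144) lower shares. The interval of the last lies above that of the second. The 2 main LHCB5 isogroups, with 57 and 32 reads in drought against 320 and 165 in control, had like folds of 5.06 (3.81 to 6.83) and 4.64 (3.17 to 7.01).

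The oxygen-evolving proteins PSBO, PSBP and PSBQ cover the manganese cluster of PSII on the lumenal side, where water is split. They had 297 reads in drought, against 1395 in control, a 4.23-fold lower share (3.73 to 4.81), and 3 of 4 genes fell. PSBO2 had 145 reads in drought, against 647 in control, 4.02-fold lower (3.35 to 4.85). PSBP-1 had 71 reads in drought, against 297 in control, 3.77-fold lower (2.90 to 4.95). PSBQA had 77 reads in drought, against 441 in control, 5.16-fold lower (4.04 to 6.66). These folds are close, with overlapping intervals. The main PSBP-1 isogroup, with 71 drought and 294 control reads, also holds an isotig that matches ERA1, a subunit of protein farnesyltransferase. PSBO1 had 4 reads in drought and 10 in control and did not pass the test, with a fold of 2.25 lower (0.649 to 9.84).

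The other PSII subunits, which are small membrane-bound proteins, had 233 reads in drought, against 670 in control, a 2.59-fold lower share (2.23 to 3.02). PSBR, which helps the oxygen-evolving proteins to bind, had 184 reads in drought, against 410 in control, and was 2.01-fold lower (1.68 to 2.40). PSBY had 37 reads in drought, against 254 in control, and was 6.18-fold lower (4.37 to 8.98). Both fell, PSBR by less, and their intervals do not overlap. PSBW had 12 reads in drought and 6 in control and did not pass the test. Its share was 2.22-fold higher in drought (0.771 to 7.21), so at this depth no difference was detectable.

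**Figure D4:**
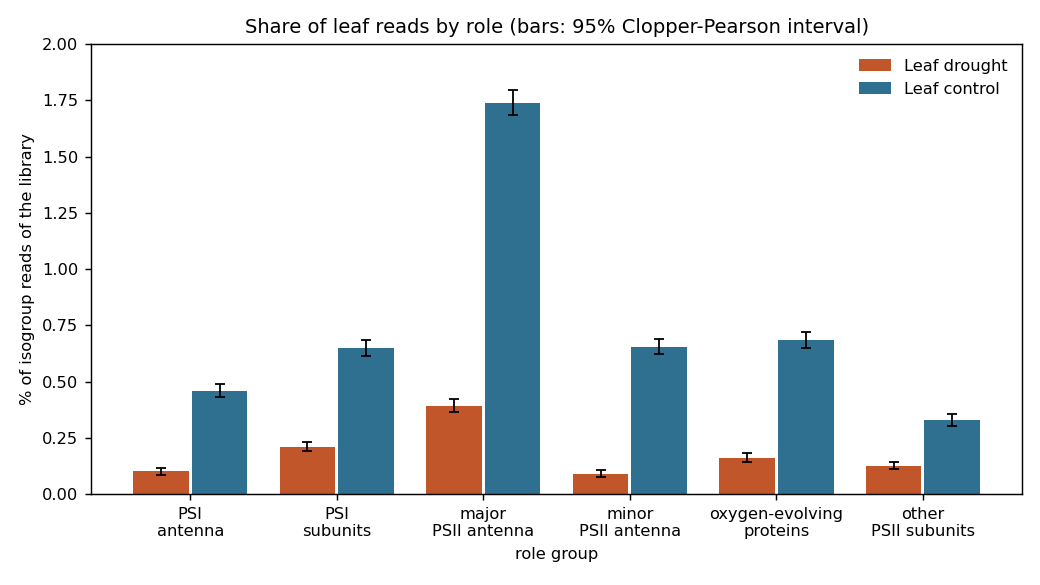
Share of the isogroup reads of the leaf drought (orange) and leaf control (blue) library held by each role group, in percent, with 95% Clopper-Pearson intervals that cover counting error only. In each of the 6 groups the drought bar is lower and the intervals are apart, from 0.0923% against 0.656% for the minor PSII antenna to 0.127% against 0.330% for the other PSII subunits.

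How firmly these calls stand depends on the spread between pots, which these 4 libraries cannot give. When edgeR's exact test was run with an assumed biological coefficient of variation of 0.2, 17 member genes and 52 isogroups still fell at p under 0.001, beside 1.60% of all leaf genes and 1.21% of all leaf isogroups. None of them rose, beside 1.64% of all leaf genes and 1.08% of all leaf isogroups. With an assumed coefficient of variation of 0.4, 2 member genes remained, LHCB6 and LHCB4.2, with 12 isogroups, of LHB1B2, LHCB6 and LHCB4.2, beside 0.160% of all leaf genes and 0.199% of all leaf isogroups. None rose, beside 0.349% of all leaf genes and 0.301% of all leaf isogroups. Under each of 5 other scalings, between 23 and 24 genes fell and none rose, and the sum over all members stayed 3.91-fold to 5.01-fold lower in drought.

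In roots the same transcripts were close to absent in both libraries. All member isogroups together had 8 reads in the drought library, 0.00401% of its isogroup reads (95% exact Clopper-Pearson interval 0.00173 to 0.00790), against 14 in the control library, 0.00691% (0.00378 to 0.0116). The ratio was 1.72-fold lower in drought (0.675 to 4.74), so no difference was detectable at this depth. None of the 7 genes passed the MARS test or reached an unadjusted p of 0.05, and edgeR's exact test called none, while 5.75% of all 8987 root genes tested fell and 3.00% rose. None of the 7 isogroups did either, beside 2.82% and 1.99% of all root isogroups. No member had more than 4 reads in roots, too few for any to pass, so the comparison with these shares decides nothing. PSBQA had 0 reads in drought and 4 in control, PSBR 0 and 3, PSBY 0 and 2, PSBP-1 3 and 1, and PSAG 3 and 0. LHCB3 and LHCB2.3 each had 1 read in drought and 2 in control. LHCB2.3 was matched in roots alone.

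The comparison of the drought effect between leaf and root could not be made for these genes. It was planned for genes with at least 10 reads in each tissue, of which there were 1899 in all, and no member reached 10 reads in roots. The most read had 4.

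The rest of the photosynthetic apparatus was set beside the members as lists of leaf genes by Arabidopsis symbol and locus. Their counts stand beside the 3.40% that fell and 3.75% that rose of all leaf genes, or 8.15% and 8.98% of those with at least 10 reads. Plastocyanin carries the symbol DRT112 in these annotations and so fell outside the choice by PETE. It had 72 reads in drought, against 330 in control, and fell 4.13-fold (3.19 to 5.40). PSB28, a PSII assembly factor, had 15 reads in drought, against 72 in control, and fell 4.32-fold (2.46 to 8.12). PSB29, which takes part in the formation of PSII antenna complexes, had 41 reads in drought and 47 in control and did not pass the test. Its log2 ratio was -0.04, and 0.04 or 0.05 without the largest or all ribosomal RNA-like isogroups. Of the 5 genes in this list 3 fell, with a median log2 ratio of -2.04.

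Plastid-encoded photosystem transcripts were taken from isogroups by the symbol of the best match in any species. None of the 5 genes fell and 3 rose, although with TMM scaling psaA fell and 1 rose and with size factors 1 rose. The gene with most reads, psbA2, which encodes the D1 protein of the PSII reaction centre, had 5703 reads in drought, against 3958 in control, and rose 1.60-fold (1.54 to 1.67). The PSII inner antenna gene psbC had 819 reads in drought, against 692 in control, and rose 1.31-fold (1.19 to 1.46), a call lost with TMM and size factors. The PSI core gene psaA had 1205 reads in drought, against 1312 in control, 1.02-fold higher (0.942 to 1.10), and did not pass the test. Its direction turned with the scaling, with log2 ratios of -0.03 with the library reads, -0.12 with size factors and -0.24 with TMM. With each of the 3 other scalings none fell and 3 rose. The log2 ratio of psbA2 ranged between 0.41 and 0.77 over the 5 other scalings.

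Electron carriers and the plastid ATP synthase are in part of nuclear origin. Of 6 such genes 4 fell and none rose, with a median log2 ratio of -1.65 over the 4 with at least 10 reads. ATPC1, the gamma subunit of ATP synthase, had 73 reads in drought, against 254 in control, and fell 3.13-fold (2.41 to 4.12). PDE334, a membrane subunit of the same enzyme, had 62 reads in drought, against 218 in control, and fell 3.17-fold (2.38 to 4.27). AT2G26500, a small subunit of cytochrome b6f, had 27 reads in drought, against 141 in control, and fell 4.70-fold (3.10 to 7.39).

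The NDH complex, which returns electrons to the chain around PSI, was listed with factors of that cyclic flow. Of 17 genes 5 fell and none rose, with a median of -1.22 over the 15 with at least 10 reads. When the largest or all ribosomal RNA-like isogroups were left out of the totals, 3 fell. PGR5-LIKE, a factor of cyclic flow, had 51 reads in drought, against 109 in control, and fell 1.93-fold (1.37 to 2.74). NdhM, an NDH subunit, had 6 reads in drought, against 36 in control, and fell 5.40-fold (2.26 to 15.7). IM, the plastid terminal oxidase, had 41 reads in drought and 35 in control and did not pass the test.

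Of 19 genes that insert antenna proteins or assemble and maintain the photosystems, 1 fell and 1 rose. Their median was -0.42 over the 17 with at least 10 reads. With the library reads as totals 2 fell and none rose, and with TMM or size factors 3 fell and none rose. FTSH1, a protease that removes damaged D1, had 224 reads in drought, against 174 in control, and rose 1.43-fold (1.17 to 1.75), a call lost under 3 other scalings. Its partner VAR2 had 152 reads in drought and 226 in control, and the kinase STN7, which phosphorylates LHCB2, had 50 and 73, and neither passed the test. VAR2 passed it with TMM (log2 ratio -0.69) and with size factors (-0.57). The gene that fell was CAO, named here after its values were seen, the symbol of the signal recognition particle protein that carries antenna proteins to the membrane, with 1 read in drought and 14 in control.

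Relatives of the antenna proteins that act in photoprotection were listed with other protective proteins. Of 9 genes 2 fell and none rose, with a median of -0.63, while 3 fell with TMM and 1 when the largest or all ribosomal RNA-like isogroups were left out. NPQ4, the PSBS protein of energy-dependent quenching, had 175 reads in drought, against 267 in control, and fell 1.37-fold (1.13 to 1.67), a call lost when the ribosomal RNA-like isogroups or the largest isogroup were left out of the totals. ELIP1, an early light-induced protein, had 105 reads in drought and 76 in control over 12 isogroups and did not pass the test as a sum. One ELIP1 isogroup, named after its values were seen, had 48 reads in drought, against 3 in control, and rose 17.8-fold (5.73 to 89.2). No other ELIP1 isogroup with at least 10 reads passed the test. Those others went both ways, with 12 drought and 26 control reads in the most read and 10 and 6 in another. ABA1, zeaxanthin epoxidase, had 40 reads in drought and 69 in control and did not pass the test.

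Rubisco and the Calvin cycle fix carbon with the products of the light reactions. Of 15 such genes 11 fell and none rose, with a median of -2.23 over the 12 with at least 10 reads. RBCS1A had 580 reads in drought, against 4658 in control, and fell 7.23-fold (6.63 to 7.90). RCA had 367 reads in drought, against 1857 in control, and fell 4.56-fold (4.07 to 5.11), and FBA2, a plastid aldolase, had 200 against 1136 and fell 5.12-fold (4.40 to 5.98). Of 18 genes of chlorophyll synthesis 6 fell and none rose, with a median of -1.68 over the 13 with at least 10 reads. GUN5, a subunit of magnesium chelatase, had 95 reads in drought, against 443 in control, and fell 4.20-fold (3.36 to 5.30). HEMA1, an early enzyme of the pathway, had 60 reads in drought, against 299 in control, and fell 4.49-fold (3.39 to 6.03). CRD1, which closes the fifth ring of chlorophyll, had 45 reads in drought, against 122 in control, and fell 2.44-fold (1.72 to 3.52).

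Of 8 genes of chlorophyll breakdown 1 fell and none rose, with a median of 0.52 over the 5 with at least 10 reads. Beside it, 8.15% of all leaf genes of that depth fell. ACD1, which opens the chlorophyll ring, had 44 reads in drought and 34 in control, and PPH, which removes the phytol tail, had 31 and 20, and neither passed the test. HCAR, which reduces chlorophyll b derivatives, had 5 reads in drought, against 26 in control, and fell 4.68-fold (1.77 to 15.6). GPRI1, the GLK1 transcription factor that activates antenna genes in Arabidopsis, had 22 reads in drought and 18 in control and did not pass the test. No difference between lists was tested.

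**Figure D5:**
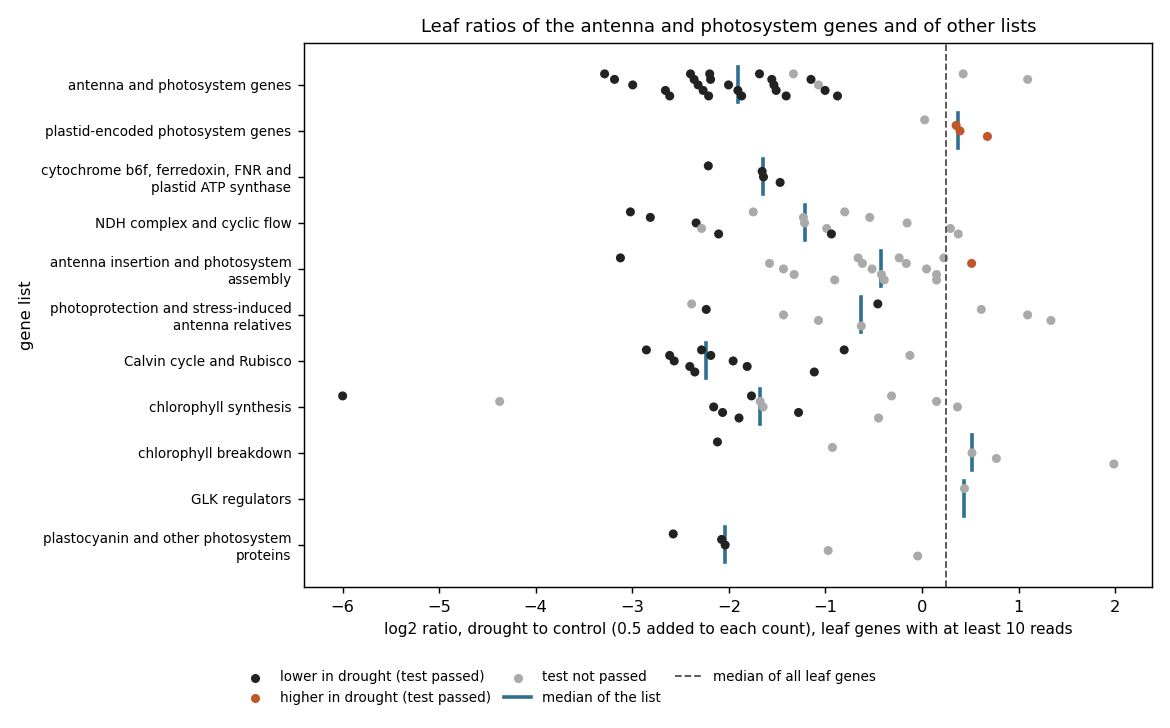
Log2 ratio of drought to control (0.5 added to each count) of each leaf gene with at least 10 reads, by list, in black where it fell, in orange where it rose and in grey where it did not pass the test. Blue bars mark the median of each list and the dashed line that of all leaf genes of that depth, and the members (top row, median -1.91) lie on the side of the Calvin cycle list, while the plastid-encoded genes lie near the dashed line.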

How the data were processed

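For each tissue, the authors assembled pyrosequencing reads (Roche GS FLX) of both its libraries in 1 run of the Roche assembler and deposited counts of reads, by library, for every isogroup and isotig. The later mapping of reassembled sequences to the wheat genome, which the methods describe, was not used here. The isotigs carry no wheat gene identifier in the tables used, so no position or sequence is given. The deposited annotation lists the best BLAST match of each isotig with its bit score, E-value and percent of identical residues. It names genes, chosen by the highest bit score in an isogroup. In a member isogroup only the member isotigs entered that choice. The deposited fold changes, z-scores and p-values of the authors were not used.

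MARS was written in Python 3.11.15 (numpy 2.4.6, scipy 1.17.1, pandas 2.3.3, matplotlib 3.10.9), applied to all isogroups or genes of a tissue, and tested on simulated data. Totals were the sums of isogroup reads. Isogroups whose matched isotigs are mostly no members were kept apart as mixed. Every member gene with at least 10 reads and the 3 most read genes of each list were named. Alternatives used library reads of 299134 (leaf drought), 319997 (leaf control), 300665 (root drought) and 305731 (root control), edgeR 4.0.16 and DESeq2 1.42.0 in R 4.3.3. Singletons and GO terms were not analysed here. The members and lists were chosen with earlier results of these data known.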

Additional observations from a re-analysis of the deposited data

How the results depend on the processing

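The count of leaf member genes that fell was between 20 and 24 under the other scalings, a value of 0.5 for 0, Fisher's exact test, Benjamini-Hochberg adjustment, a minimum of 10 reads or 2-fold, an E-value limit of 1e-20 and the mixed isogroups kept in, and 17 with an assumed coefficient of variation of 0.2, against 23 in the report. With an assumed coefficient of variation of 0.4 it was 2 genes and 12 isogroups. With isotigs, which repeat shared reads, in place of isogroups 100 of 148 fell. The share of all 19899 leaf isotigs that fell is not given here, so this count has no background beside it. The 1 isogroup that rose was 0 under TMM, size factors, both assumed coefficients of variation and an E-value limit of 1e-20. In roots, where none had more than 4 reads, no member was called under any alternative run. The median log2 ratio of all leaf isogroups with at least 10 reads, 0.15 in the report, was -0.12 with TMM and 0.24 without ribosomal RNA-like isogroups, and all leaf ratios shift by the same difference. No library could be left out. No paired analysis was possible because each group has 1 library. Counts under 10 reads limit 24 leaf isogroups and all root genes.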
